A study of Mus musculus with 6 samples.

Results

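RAW264.7 cells carrying a control hairpin (shCtrl) and kept for 4 days with RANKL, the cytokine that turns macrophage precursors into osteoclasts, were described here across all genes. The condition was taken as the 3 libraries that the labels call shCtrl, out of 6 in the series, and each of the 3 is a bulk RNA-seq library of total RNA. RAW264.7 is a mouse macrophage-like line that grew out of a tumour induced with a leukaemia virus in a male BALB/c mouse, and it forms multinucleated, bone-resorbing cells when RANKL is added. The study set these cells beside cells of the same line with a hairpin against Usp8, a deubiquitinating enzyme. All 6 samples shared the line, α-MEM medium with serum, RANKL at 50 ng/mL and the day of harvest. The labels name the genotype of the control libraries WT, the tissue ascites and the cell type macrophage. All 3 libraries come from a single line, and no culture without RANKL and no earlier day was analysed here. The levels are therefore those of a treated culture as a whole, and no change brought about by RANKL could be measured.

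The 3 libraries held 20121644, 20133424 and 20213939 expected counts, so their depths were nearly equal. At this depth 3 counts, the limit that a count of 0 allows, corresponded to 0.148 to 0.149 CPM, the usual per-library scaling of counts, which covers counting error only. Usp8 had counts of 2785, 2561 and 2645 in the shCtrl libraries and between 656 and 720 in the 3 shUSP8 libraries, so the groups did not overlap and the labels held for the targeted gene. The labels number the libraries but do not say that they came from separate cultures, so the spread between them may be technical. No test was made, because a single condition was described. Levels are given as TPM, a unit that divides reads by transcript length and scales each library to the same total, so that genes can be compared within a library. Values after ± are the SD over the 3 libraries (n = 3).

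Osteoclasts are large cells that form by fusion of macrophage precursors. RANKL binds its receptor RANK, signals through TRAF6, NF-κB and AP-1, and, together with co-stimulation from immunoreceptors that use the adaptors encoded by Tyrobp and Fcer1g, induces the transcription factor NFATc1. The mature cell seals a patch of bone with an actin ring, pumps protons into it with a vacuolar ATPase, balances the charge with a chloride exchanger, and secretes cathepsin K and other enzymes that digest the matrix.

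The 6 marker genes given for the osteoclast were all counted at high levels in every library. Ctsk, which encodes the collagen-degrading protease cathepsin K, was at 5133, 5053 and 4886 TPM. Acp5, the tartrate-resistant acid phosphatase used to stain osteoclasts, was at 3310, 3065 and 3022 TPM. Both stood among the 40 most abundant genes of the transcriptome, at rank 17 and rank 38 by mean TPM. Mmp9, a secreted gelatinase, was at 1231, 1172 and 1049 TPM. Atp6v0d2, a proton pump subunit that is also required for cell fusion, was at 576, 562 and 512 TPM. Dcstamp, the fusion receptor, was at 285, 264 and 257 TPM. Nfatc1 was at 166, 158 and 126 TPM, the widest relative spread of the 6. The culture labelled as macrophage thus carried all 6 osteoclast markers, and in a bulk library a smaller number of cells of a type and less RNA per cell cannot be told apart.

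The most abundant transcripts were those of mitochondria, translation and energy metabolism. mt-Atp8, an ATP synthase subunit encoded by the mitochondrial genome, led the list at 45162, 76914 and 76499 TPM. Its counts were only 2982, 5951 and 6506, because the gene is shorter than a sequenced fragment. The ratio of count to TPM gave it an effective length, the number of positions at which a fragment can start, of 4.32 nt. Fragments, estimated from that ratio in genes with a single annotated transcript, averaged 309.2, 303.4 and 300.6 nt in the 3 libraries, and the library with the longest fragments had the lowest mt-Atp8. The level of mt-Atp8 cannot be read from TPM at such a length. In all, 156 genes had an effective length under 50 nt, and they took 8.34% of TPM with 0.0613% of the counts. By counts the first gene was mt-Co1, a cytochrome oxidase subunit, at 16957, 16997 and 18965 TPM and 1.92% of all counts. Eef1a1, the elongation factor that brings aminoacyl-tRNA to the ribosome, followed at 1.26% of counts and 9886 ± 342 TPM.

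**Figure D1:**
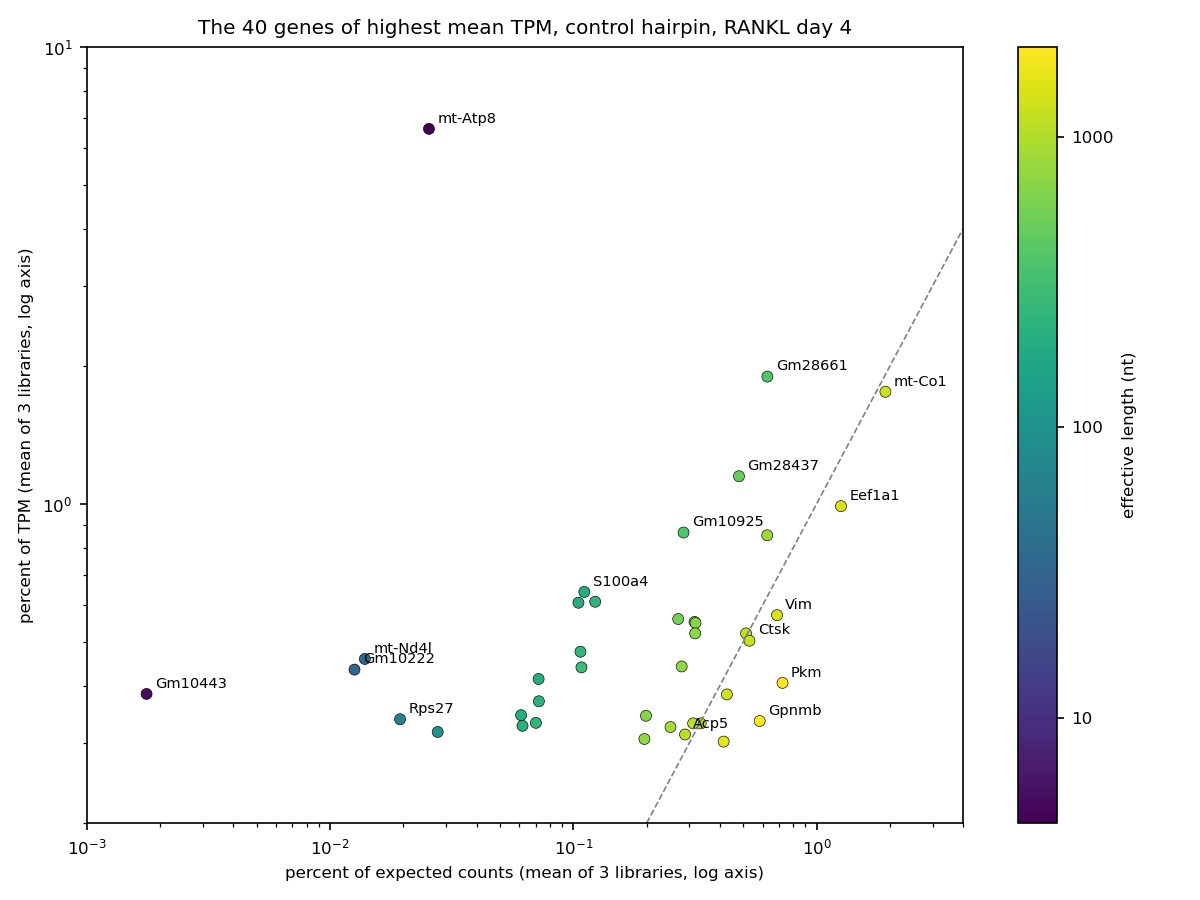
Percent of TPM against percent of expected counts, both log axes and means of the 3 libraries, for the 40 genes of highest mean TPM. Each point is a gene, coloured by effective length, and the dashed line marks equal shares. mt-Atp8 stands far above the line at 6.62% of TPM and 0.0255% of counts, whereas Pkm and Gpnmb, with long transcripts, lie below it.

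Among nuclear genes with a full-length transcript, the highest levels belonged to a mixture of housekeeping, migratory macrophage and osteoclast genes. S100a4, a calcium-binding protein of motile cells, was at 6592, 6252 and 6421 TPM. Vim, which encodes the intermediate filament protein vimentin, was at 5784, 5445 and 5903 TPM. Ftl1, the ferritin light chain that stores iron, was at 5690, 5497 and 5280 TPM. Aldoa, Gapdh, Pkm and Ldha, enzymes of glycolysis and lactate formation, had means of 5206 ± 145, 4410 ± 438, 4062 ± 86.8 and 3834 ± 277 TPM. Atp5b, the catalytic subunit of mitochondrial ATP synthase, stood beside them at 5600 ± 229 TPM. Ckb, the brain-type creatine kinase that is abundant in osteoclasts, was at 3338, 3236 and 3370 TPM. Lgals3, a galectin of macrophages, was at 3247 ± 134 TPM, and Mif, a cytokine stored in macrophages, was at 3323 ± 147 TPM. By counts, which favour long transcripts, Gpnmb and Ctsk ranked 8 and 9 and Ctsb, another lysosomal protease, ranked 11. Acp5, Atp6v1a and Mmp9 ranked 23, 24 and 25.

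Gpnmb, a membrane glycoprotein of macrophages and osteoclasts, showed how far the unit mattered. Its counts of 122147, 116749 and 114129 varied with a coefficient of variation (CV, SD divided by mean) of 2.9% after scaling. Its TPM of 3962, 3052 and 3026 varied by 15.9%. The first library was highest on both scales, and it lay much farther apart in TPM than in counts.

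Several of the highest entries were copies of other genes. Gm28661, Gm28437 and Gm10925, on chromosome 1 between positions 24613189 and 24615565 (mm10), were at 19010 ± 968, 11460 ± 362 and 8660 ± 544 TPM. They are unprocessed pseudogenes, nuclear copies of the mitochondrial genome, and their transcripts matched mt-Co2, mt-Co3 and mt-Atp6 over 100% of their length at 100% identity. The mitochondrial genes themselves had 531.9 ± 139, 1041 ± 301 and 2172 ± 52.4 TPM, so most of the shared reads had been assigned to the nuclear copy. Which locus made the RNA cannot be told apart from these sequences. Together mt-Co2 and Gm28661 reached 19730, 18440 and 20470 TPM. Gm13394 and Gm7336 matched Gapdh at 99.9% and 99.76% identity, and the 3 entries together had 143484, 137905 and 157910 counts. Of 93 predicted genes, clone names and pseudogenes at a mean of at least 100 TPM, 75 matched a named gene at 95% identity or more over at least 80% of their length. The parents were ribosomal protein genes for 43, mitochondrial genes for 5 and others for 27, and these 75 entries held 10.4% of TPM. Atp6v0c-ps2, at 2542 ± 176 TPM, matched Atp6v0c, the membrane ring subunit of the proton pump, at 99.78%. An exception was Gm46620, a long intergenic RNA at 3160, 3024 and 2880 TPM and rank 14 by counts. The best match to it, in Chd9, covered 11.3% of its length.

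Expression was concentrated in few genes. In the mean of the libraries 166 genes held 50% of TPM, with 181, 166 and 151 in the single libraries. By counts 550 genes were needed, because many of the leading genes are short. The first 10 genes held 16% of TPM and 8.1% of counts, and the first 100 held 41.7% and 26.4%.

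Genes were placed in disjoint functional classes, with most copies left apart by name, although Atp6v0c-ps2 fell in the proton pump class. The largest named class was the cytosolic ribosomal proteins, at 14.8%, 14.5% and 14.9% of TPM. Rplp1 was among its highest genes at 6081 ± 247 TPM, and 87 of its 93 entries reached 1 TPM. By counts the same class took 5.16 ± 0.175%. The mitochondrial genome took 9.91%, 12.9% and 13.3% of TPM and 4 ± 0.264% of counts. The 5 nuclear copies of it added 4.48% of TPM and 1.41% of counts. Counted with these copies, the mitochondrial genome took 14.5%, 17.2% and 17.9% of TPM and a mean of 5.41% of counts. The ribosomal proteins were not counted with their own copies, so these values do not rank the classes. Entries named as ribosomal protein pseudogenes alone took a further 1.63 ± 0.0241% of TPM and 0.509 ± 0.017% of counts. Nuclear genes of the respiratory chain and ATP synthase took 4.04 ± 0.119% of TPM and 1.66% of counts, and genes of the citric acid cycle 0.451 ± 0.0189% of TPM. Glycolysis, with 25 of 26 genes at 1 TPM or more, took 2.8 ± 0.128% of TPM and 3.51% of counts, so the order of the respiratory chain and glycolysis turned with the scale. Both shares leave out near-identical copies. Those of glycolysis genes included Gm13394 and Gm7336 (Gapdh) and Gm4735 (Eno1b), at means of 5213, 1596 and 1829 TPM. Those of the respiratory chain and ATP synthase included Gm10221 (Atp5l) at 380.5 TPM. The actin and intermediate filament cytoskeleton took 3.21 ± 0.0705% of TPM and 4.33 ± 0.0284% of counts, led by Vim, Actg1 and Pfn1. The low share of the mitochondrial genome in the first library came with mt-Atp8, and without that gene the class took 5.65%, 5.65% and 6.12% of the remaining TPM.

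Classes that hold osteoclast functions took shares of TPM like those of several general classes. Splicing and RNA-binding proteins, for example, took 1.49 ± 0.0489% and chaperones 1.38 ± 0.0136%. The class of 22 resorption and fusion genes took 1.51%, 1.45% and 1.42% of TPM and 1.84 ± 0.0289% of counts. Ctsk, Ckb, Acp5 and Mmp9 made up 34.4%, 22.7%, 21.5% and 7.89% of that class. The vacuolar proton pump took 1.56%, 1.49% and 1.48% of TPM. That share includes the pseudogene Atp6v0c-ps2, without which it was 1.29%, 1.25% and 1.23%. The other lysosomal enzymes and membrane proteins took 1.88%, 1.8% and 1.77%. Macrophage surface and Fc receptor genes, at 1.74%, 1.61% and 1.62%, took a share of the same order. That class holds Lgals3, at 0.325% of TPM, and Gpnmb, a gene of both macrophages and osteoclasts, at 0.335%, so its share depends on where such genes were placed. At the other end, MHC and antigen presentation genes took 0.16 ± 0.00264%, histones 0.275 ± 0.0101% and sterol and fatty acid synthesis 0.206 ± 0.0106%. Olfactory, vomeronasal and taste receptors took 0.000718%, and 1 of their 2056 genes, Olfr933 at 1.81 TPM, passed 1 TPM.

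**Figure D2:**
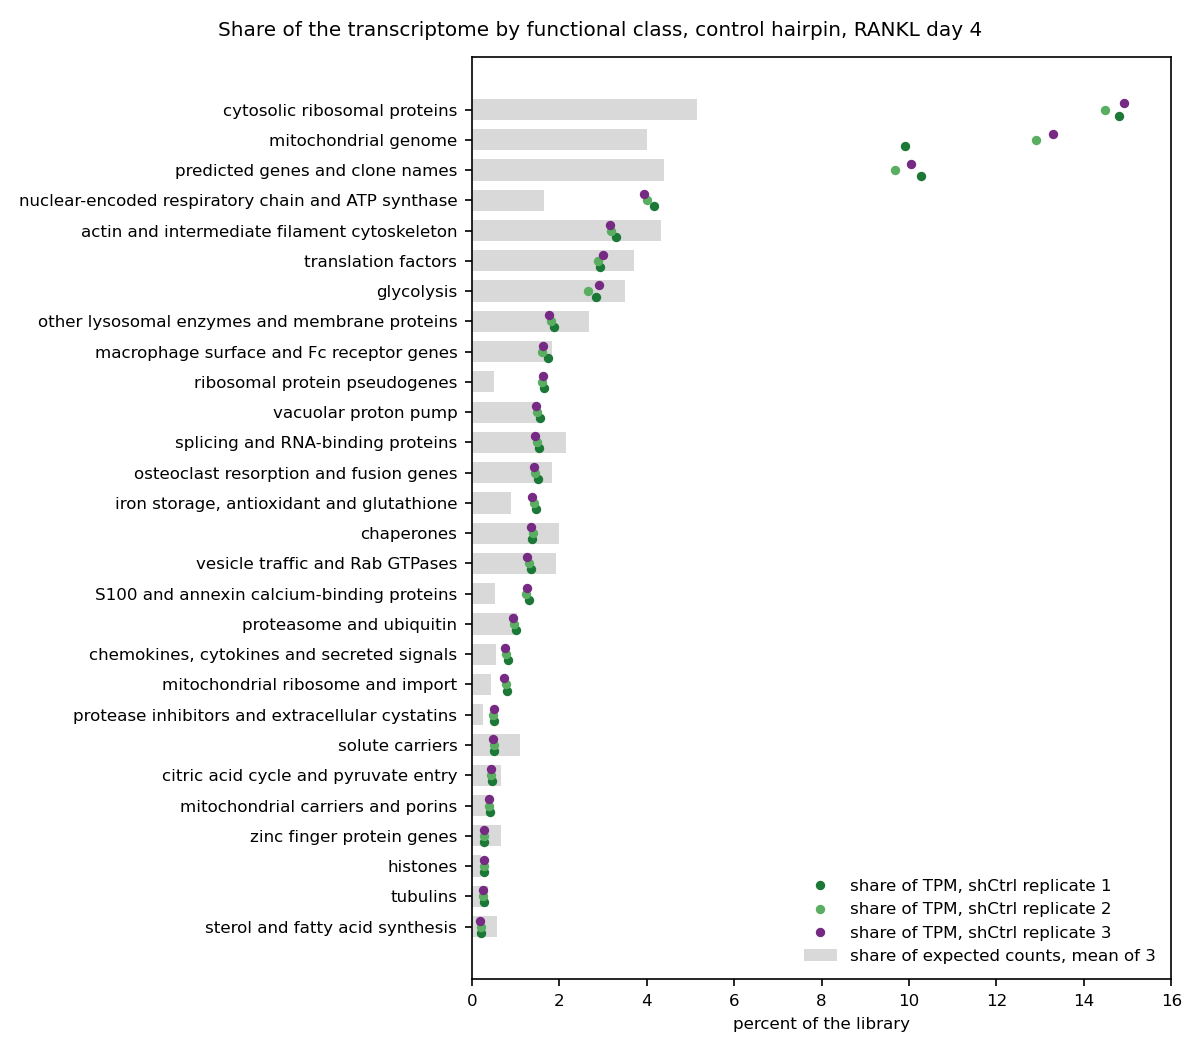
Share of each library taken by 28 functional classes, in percent. Points are the share of TPM in each of the 3 shCtrl libraries and grey bars the mean share of expected counts, and genes in no class and classes under 0.2% of TPM are left out. Ribosomal proteins lead at 14.7% of TPM, and the mitochondrial genome is lowest in the first library, a gap that is absent without mt-Atp8 (5.65%, 5.65% and 6.12%).

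Osteoclast genes were listed by role and their levels set against all protein-coding genes. Of 138 genes in the 9 osteoclast lists, 123 (89.1%) reached 1 TPM and 60 reached 100 TPM, with a median of 71.6 TPM. Of 21799 protein-coding symbols, 10264 (47.1%) reached 1 TPM, with a median of 0.43 TPM. The lists also hold genes that are not particular to osteoclasts, such as Spi1, Csf1r, Pfn1 and Cfl1. The contrast therefore depends in part on which genes were listed, and it does not measure an osteoclast state.

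All 15 receptor and signalling genes were at 10 TPM or more. Tnfrsf11a, which encodes RANK, was at 82, 77.8 and 71.8 TPM. Csf1r, the receptor for the survival factor M-CSF, stood about an order of magnitude above it at 774, 744 and 797 TPM. Of the co-stimulatory adaptors, Tyrobp was at 1672 ± 31.3 TPM and Fcer1g at 210.7 ± 5.55 TPM. Their partner receptors Trem2 and Oscar were at 189.4 ± 11.6 and 51.95 ± 5.27 TPM. The kinases Syk and Btk, which act below these adaptors, were at 86.2 ± 2.79 and 42.7 ± 1.84 TPM. Traf6, the adaptor of RANK, was the lowest of the list at 12.5, 12.4 and 12.8 TPM. Within the TRAF family Traf1 was highest at 46.7, 43.9 and 36.4 TPM, while Traf5 at 20.9 ± 3.63 and Traf2 at 19.4 ± 0.485 TPM did not differ beyond their spread. The ligand itself, Tnfsf11, and its decoy Tnfrsf11b had a count of 0 in every library, which allows up to 0.149 CPM. Csf1, the gene for M-CSF, was at 0.167 ± 0.0764 TPM.

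Of 20 transcription factors of the osteoclast, 19 reached 1 TPM. Spi1, which encodes the myeloid factor PU.1, led at 668 ± 20.4 TPM. Jdp2, an AP-1 repressor needed for osteoclast formation, followed at 438, 420 and 365 TPM. Among FOS genes Fosl2 was highest at 260, 266 and 260 TPM and Fos followed at 145, 142 and 126 TPM, with no overlap between them. Among JUN genes Junb at 185.6 ± 3.98 TPM stood above Jund at 141.8 ± 1.16 and Jun at 35.87 ± 1.66 TPM. Nfatc1 made up 77.9% of the TPM of the NFAT family, and Nfat5 came next at 13.4%. In the NF-κB family Nfkb2, the gene of the alternative pathway, led at 65.5, 67.7 and 64.6 TPM, whereas Nfkb1 and Rela, at 48.89 ± 1.42 and 44.2 ± 3.43 TPM, were close to each other. Myc, at 102 ± 3.52 TPM, and Esrra, at 69 ± 1.31 TPM, are both known to drive oxidative metabolism in osteoclasts. Ppargc1b, the coactivator of mitochondrial biogenesis in these cells, was at 26.3 ± 3.73 TPM, and its relative Ppargc1a was at 0.0267 ± 0.0252 TPM. Prdm1, a repressor of anti-osteoclast genes, was at 24.73 ± 1.71 TPM. Irf8 and Bcl6, known targets of it, were at 8.58 ± 0.448 and 12.1 ± 0.185 TPM.

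Of 15 fusion genes, 14 reached 10 TPM. Cd9, a tetraspanin of fusing cells, led at 866, 892 and 823 TPM. Ocstamp, the partner of Dcstamp, was at 94.9, 86.6 and 80.7 TPM, below Dcstamp in every library. Siglec15, an immunoreceptor of late osteoclast precursors, was at 80.3 ± 3.83 TPM, and the self-recognition pair Sirpa and Cd47 at 255.3 ± 9.55 and 91.5 ± 0.969 TPM. Adam12, a metalloprotease described in fusion of other cells, was nearly uncounted, with 0.01 TPM in one library and 0 in the other two.

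All 12 acid secretion genes were above 10 TPM, with a median of 209 TPM. Tcirg1, the proton pump subunit that targets the pump to the bone-facing membrane, was at 1147, 1107 and 1017 TPM. It made up 95.4% of the a-subunit family, while Atp6v0a1 and Atp6v0a2 were at 28.3 ± 2.84 and 24.9 ± 3.62 TPM and did not differ beyond their spread. Atp6v0d2 exceeded the ubiquitous Atp6v0d1 in every library, at 549.9 ± 33.6 against 218.4 ± 5.64 TPM. Atp6v1b2 was the only B subunit above 1 TPM, at 952.8 ± 43.8 TPM. Clcn7, the chloride and proton exchanger, was at 200, 191 and 196 TPM, and its partner Ostm1 at 35.4 ± 2.99 TPM. Car2, the carbonic anhydrase that supplies protons, was at 243, 219 and 206 TPM, and Slc4a2, which exports bicarbonate, at 412.2 ± 27.1 TPM. Snx10 and Plekhm1, 2 vesicle traffic genes mutated in osteopetrosis, were at 97.7 ± 6.43 and 94.7 ± 7.12 TPM.

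Matrix-degrading enzymes were divided between a few very abundant genes and several near the detection limit. Beside Ctsk, Acp5 and Mmp9, the lysosomal proteases Ctsb and Ctsd were at 2661 ± 58.8 and 1669 ± 54 TPM, and Ctsl at 410.5 ± 22.6 TPM. Ctsk made up 40.3% of cathepsin TPM and Mmp9 98.7% of matrix metalloproteinase TPM. Mmp14, the membrane-bound collagenase described in osteoclasts, was at 2.64, 3.61 and 2.55 TPM. Mmp12 was at 5.03 ± 0.79 TPM and Mmp13 at 0.183 ± 0.0603 TPM. The protease inhibitors followed a like split, with Cstb at 2301 ± 68.8 and Cst3 at 1921 ± 59.6 TPM and, among the TIMP genes, Timp2 at 35.9 ± 4.26 TPM with Timp1 at 0.507 ± 0.121 TPM.

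Of 22 genes of the sealing zone and of adhesion, 21 reached 1 TPM. Pfn1, Cfl1 and Gsn, which turn over actin filaments, were at 2343 ± 144, 1385 ± 39.1 and 1216 ± 16.1 TPM. Src, the kinase without which the ring does not form, was at 179, 174 and 162 TPM and made up 66.8% of its family. The vitronectin receptor of osteoclasts pairs the integrins αv and β3, and their genes were far apart in level. Itgav was at 292, 279 and 269 TPM, whereas Itgb3 was at 4.64, 4.79 and 4.71 TPM. Of the other partners of αv, Itgb5 was at 16.2 ± 2.77 and Itgb1 at 75.6 ± 1.17 TPM, and the leukocyte chain Itgb2 led the β family at 381.5 ± 14.8 TPM. Cttn, which encodes cortactin, an actin-binding protein described in podosomes, was at 0.04, 0.04 and 0.11 TPM. Hcls1, its haematopoietic relative, was at 122.6 ± 14 TPM.

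Further genes of mature osteoclasts also varied widely. Slc37a2, a sugar phosphate exchanger of the secretory lysosome, was at 883, 846 and 879 TPM. Nrp2 and Anpep were at 264.5 ± 12 and 200.9 ± 31.2 TPM. Calcr, the calcitonin receptor of late osteoclasts, was at 2.87, 1.67 and 1.74 TPM, with counts of 126, 92 and 88. Of the 14 secreted coupling factors, 8 reached 1 TPM. Spp1, the matrix protein osteopontin, was at 2326 ± 164 TPM, and Pdgfb, a growth factor for vessel and bone precursors, at 162.7 ± 10.7 TPM. Sema4d, which restrains osteoblasts, was at 147.6 ± 13.3 TPM. Sphk1 was at 14.6 ± 1.08 TPM and Cthrc1 at 0.157 ± 0.15 TPM, and Slit3 and Bmp6 had counts of 0. Of 17 inhibitors, 14 reached 1 TPM and only Nfkbia, the NF-κB inhibitor, and Lilrb4a reached 100 TPM.

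**Figure D3:**
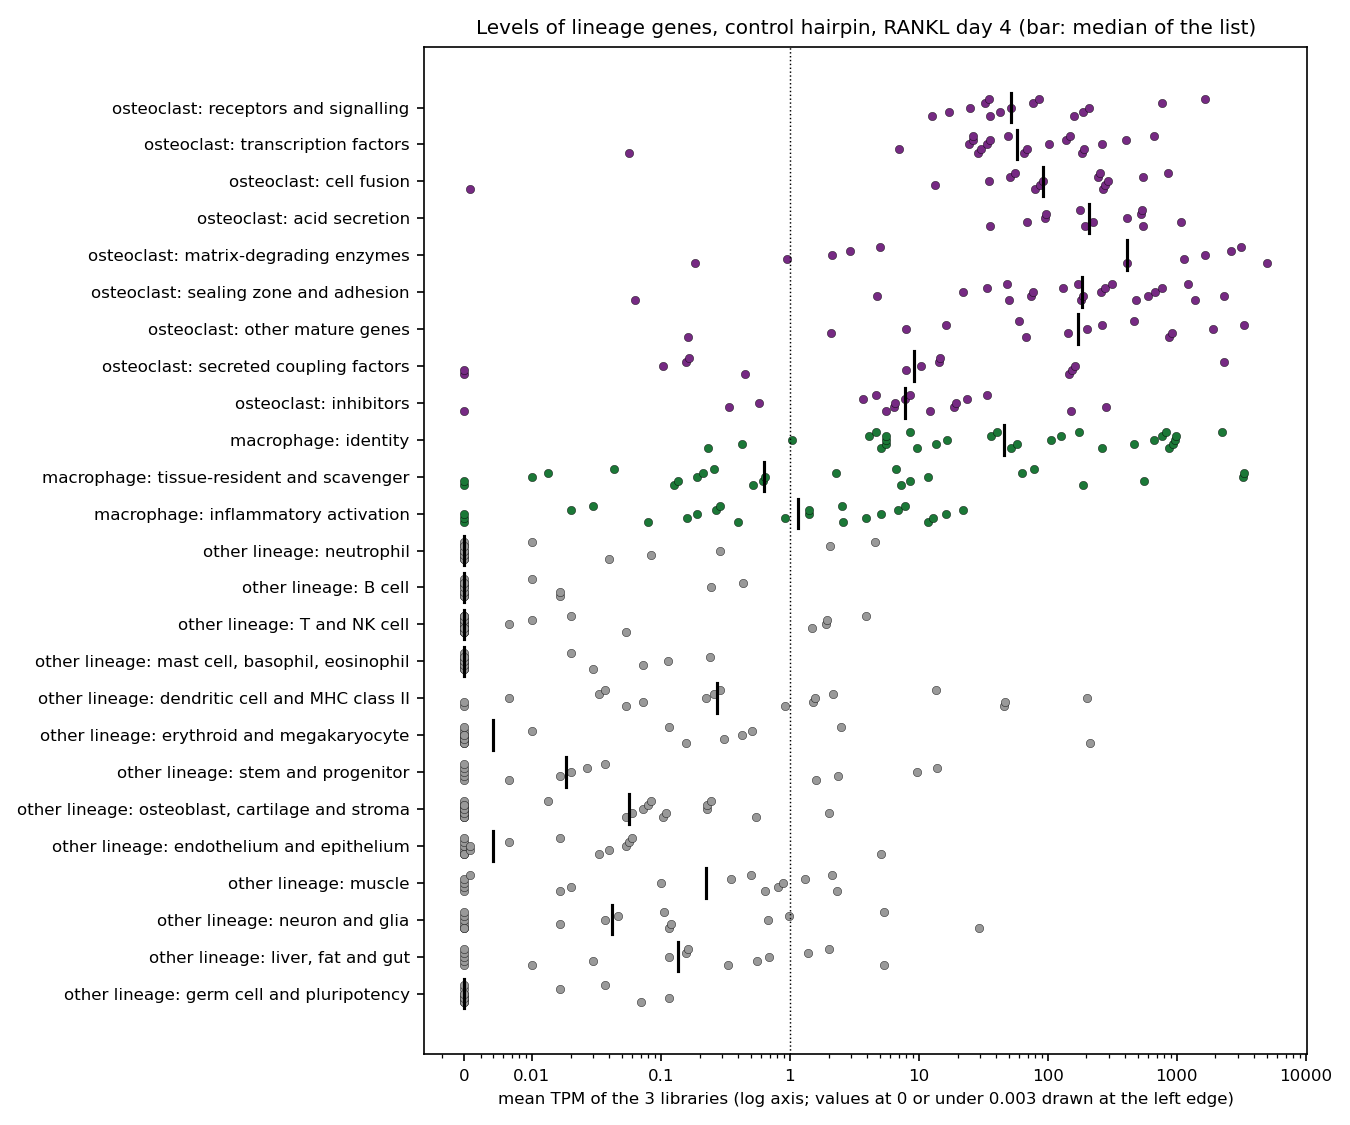
Mean TPM of the 3 libraries, on a log axis, for each gene of 9 osteoclast, 3 macrophage and 13 other-lineage lists. Each point is a gene, the black bar is the median of its list, the dotted line is 1 TPM, and genes at 0 are drawn at the left edge. Osteoclast lists for acid secretion and matrix degradation have medians of 209 and 410 TPM, and the neutrophil, B cell and T cell lists have medians of 0.

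Macrophage identity genes were counted at levels like those of the osteoclast genes. The lists of tissue residency and of inflammatory activation had lower medians, 0.635 and 1.16 TPM. In them 11 of 24 and 12 of 24 genes reached 1 TPM, near the share over all protein-coding symbols (47.1%, median 0.43 TPM). In the identity list 28 of 30 genes reached 1 TPM, with a median of 46.1 TPM. Cd68, a lysosomal glycoprotein of macrophages, was at 2348, 2160 and 2195 TPM, Lyz2 at 995, 922 and 900 TPM, and Laptm5 at 1038, 979 and 892 TPM. Markers that define the cell surface of the macrophage were lower. Cd14, the endotoxin co-receptor, was at 126.9 ± 6.62 TPM, Itgam at 40.15 ± 0.374 TPM, and Adgre1, which encodes F4/80, at 14.3, 14.2 and 12.3 TPM. Fcgr1 and Mertk, often used as macrophage markers, were at 0.427 ± 0.257 and 0.233 ± 0.0208 TPM. Of the Fcγ receptor genes Fcgr4 was highest, at 9.77 ± 0.308 TPM.

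Of 24 tissue-resident and scavenger genes, 11 reached 1 TPM. Gpnmb, Lgals3, Lpl and Trem2 were above 100 TPM, and Lpl, the lipoprotein lipase, was at 564, 547 and 552 TPM. Cd36 and Msr1, scavenger receptors, were at 78 ± 4.69 and 63.2 ± 2.95 TPM. The complement genes C1qa, C1qb and C1qc were at 0.257 ± 0.112, 0.523 ± 0.333 and 0.623 ± 0.276 TPM, Mrc1 at 0.19 ± 0.0436 TPM and Cd163 at 0.0133 ± 0.0153 TPM. Timd4 and Vsig4 had a count of 0.

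Of 24 inflammatory genes in the files, 12 reached 1 TPM and none reached 100 TPM. Cd80 and Tlr2 led them at 22 ± 3.23 and 16.4 ± 0.348 TPM. Tnf was at 13.6, 13.6 and 11.3 TPM. Nos2, the inducible nitric oxide synthase, was at 0.913 ± 0.189 TPM, Il1b at 0.29 ± 0.141 TPM and Arg1 at 0.19 ± 0.123 TPM. Il6, Il12b and Ifnb1 had a count of 0 in every library. Pycard, the inflammasome adaptor ASC, had counts of 1, 1 and 3, while Nlrp3 and Casp1 were at 7.84 ± 0.211 and 6.94 ± 0.302 TPM. Of 44 chemokine and cytokine genes 26 reached 1 TPM, and after Mif and Spp1 the leaders were Grn, Ccl9 and Il1rn, at 755.3 ± 33, 748.8 ± 43.8 and 645.3 ± 9.49 TPM. Ccl9 encodes a chemokine that osteoclasts secrete, and Il1rn the natural antagonist of the interleukin-1 receptor.

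Gene families that offer a choice between members differed in how far a single gene carried the expression. Of 51 families, 21 had a member with at least 90% of the family's TPM. These included Acp5 (96.7% of acid phosphatases), Car2 (91.3% of carbonic anhydrases), Ckb (99.5% of creatine kinases), Aldoa (97.3% of aldolases) and Pdgfb (94% of PDGF ligands). Ldha and Pkm made up essentially all lactate dehydrogenase and pyruvate kinase TPM, with Ldhb at 0.08 ± 0.0917 and Pklr at 0.03 ± 0.0173 TPM. Esrra was the one estrogen-related receptor counted. Other families were shared. Actg1 at 2482 ± 117 and Actb at 2294 ± 173 TPM did not differ beyond their spread. Hk1 was at 138, 131 and 128 TPM and Hk3 at 121, 119 and 124 TPM, so their ranges did not overlap, and Hk2 was lower at 78.7 ± 5.17 TPM. Tubb6, a β-tubulin gene, led its family at 843, 831 and 805 TPM, above Tubb5 at 413.4 ± 7.29 TPM.

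**Figure D4:**
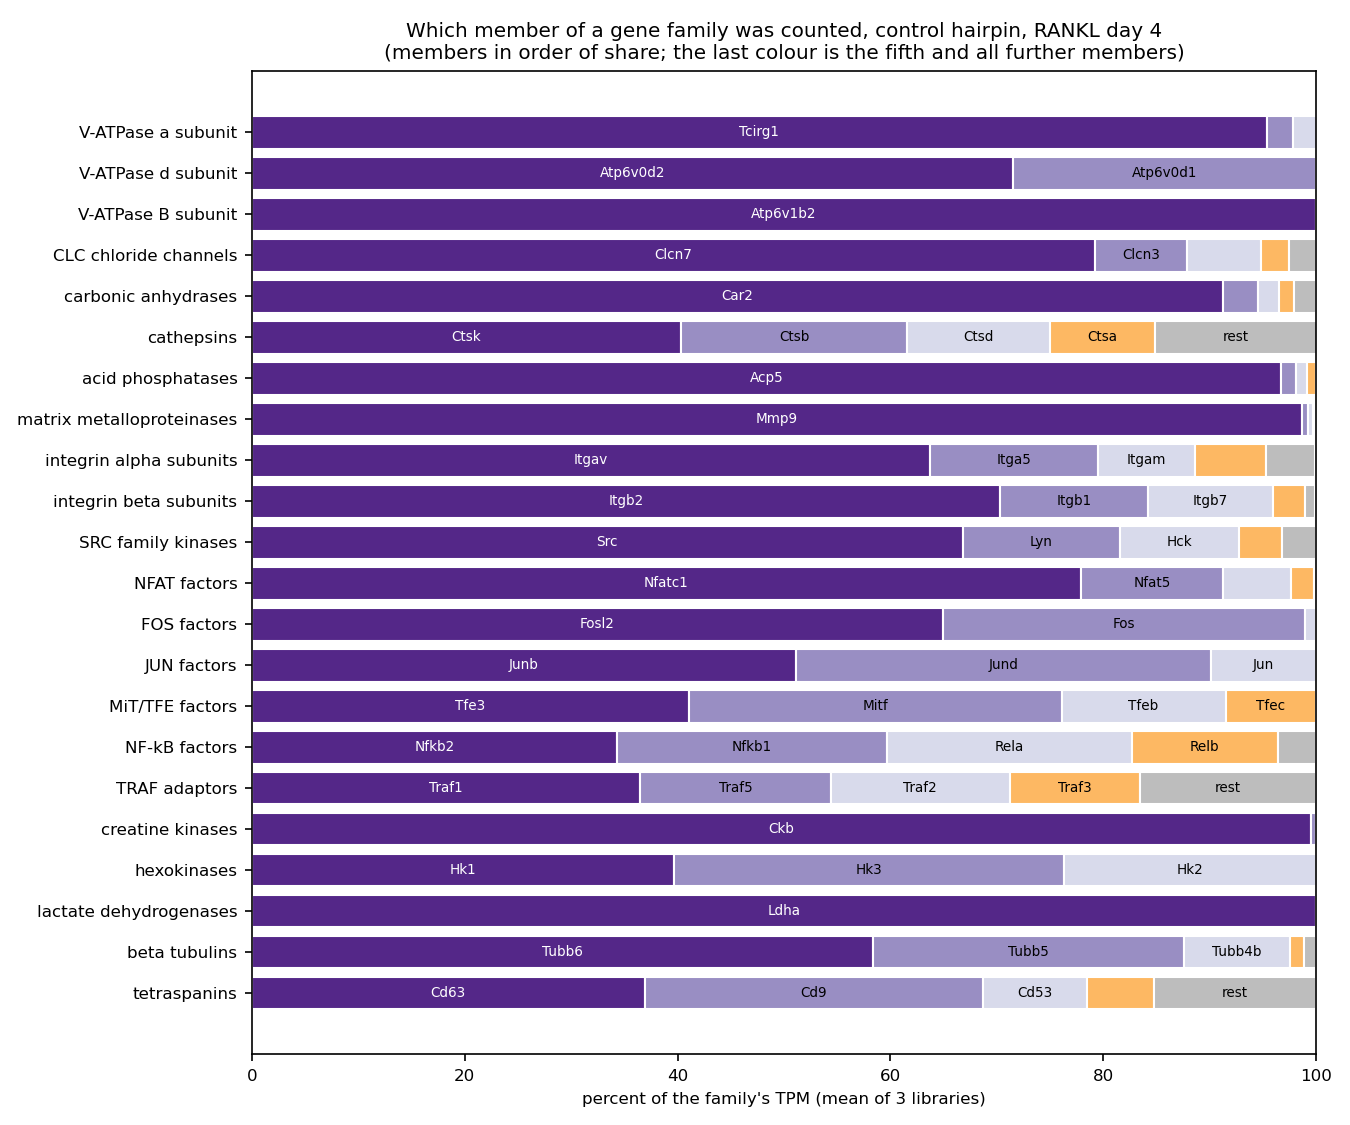
Composition of 22 gene families by member, in percent of the family's TPM, mean of the 3 libraries. Each bar is a family and each segment a member in order of share, with the fifth and later members in grey. Tcirg1, Mmp9, Acp5, Ckb and Ldha fill almost the whole bar, and the cathepsin, MiT/TFE and TRAF families are divided among several members.

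The MiT/TFE family, which governs lysosomal genes and, through Mitf, osteoclast genes, was also shared. Tfe3 was at 33.1, 31.6 and 37.1 TPM, Mitf at 31.9, 27.6 and 27.2 TPM, Tfeb at 12.7 ± 1.2 TPM and Tfec at 7.02 ± 0.12 TPM. Tfe3 and Mitf overlapped. These factors are known to bind E-boxes, and the promoter windows of genes in this condition were searched for the letters TCACGTG on either strand. The windows are 300 bases of RefSeq sequence, 250 before a gene's start and 50 after it (GRCm38.p6), and a gene with several windows was counted if any held the motif. Of all 27025 genes with a window, 4.29% held it, and of 5668 genes with a mean of at least 10 TPM, 8.06%. Of 20 proton pump genes with a window 4 (20%) held it, and of 51 other lysosomal genes 11 (21.6%). The resorption and fusion class had 1 holder of 13 genes with a window, Clcn7. The markers Mmp9, Nfatc1 and Dcstamp of this class, and Atp6v0d2 of the proton pump, had no window and were not searched. The share was not high in these classes alone, since translation factor genes held the motif in 16.9% of 59. These are matches of letters and not measured binding sites, and no binding was measured here.

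The windows of Ctsd, Atp6v1a and Clcn7 are printed because they join a high level to the motif, in capitals, and that of Ctsk because it was the most abundant resorption gene and held no match. They are written 5′ to 3′ along the gene. Ctsd lies at chr7:142387778-142388077 on the minus strand, Atp6v1a at chr16:44139210-44139509 on the minus strand, Clcn7 at chr17:25133141-25133440 on the plus strand and Ctsk at chr3:95498960-95499259 on the plus strand. Counted from the start of the gene, the first match begins at -245 in Ctsd, at -132 in Atp6v1a and at -16 in Clcn7. Capitals of more than 7 letters mark matches on both strands that overlap.
Ctsd: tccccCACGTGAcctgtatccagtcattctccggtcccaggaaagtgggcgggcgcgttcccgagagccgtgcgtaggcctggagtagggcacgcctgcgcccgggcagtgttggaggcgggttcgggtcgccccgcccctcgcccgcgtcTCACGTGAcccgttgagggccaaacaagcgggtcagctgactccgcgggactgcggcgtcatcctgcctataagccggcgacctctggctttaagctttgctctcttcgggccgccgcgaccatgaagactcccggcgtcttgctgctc
Atp6v1a: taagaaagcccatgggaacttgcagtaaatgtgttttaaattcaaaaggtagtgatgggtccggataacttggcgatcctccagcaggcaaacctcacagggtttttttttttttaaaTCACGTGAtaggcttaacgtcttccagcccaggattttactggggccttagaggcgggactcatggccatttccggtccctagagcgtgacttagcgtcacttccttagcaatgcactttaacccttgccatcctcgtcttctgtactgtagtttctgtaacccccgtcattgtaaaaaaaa
Clcn7: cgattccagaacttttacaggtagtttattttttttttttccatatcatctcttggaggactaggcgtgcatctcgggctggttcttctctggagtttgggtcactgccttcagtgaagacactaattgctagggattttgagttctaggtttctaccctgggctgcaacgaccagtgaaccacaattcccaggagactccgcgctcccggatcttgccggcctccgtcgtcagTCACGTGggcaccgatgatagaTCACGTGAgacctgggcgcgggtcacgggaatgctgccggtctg
Ctsk: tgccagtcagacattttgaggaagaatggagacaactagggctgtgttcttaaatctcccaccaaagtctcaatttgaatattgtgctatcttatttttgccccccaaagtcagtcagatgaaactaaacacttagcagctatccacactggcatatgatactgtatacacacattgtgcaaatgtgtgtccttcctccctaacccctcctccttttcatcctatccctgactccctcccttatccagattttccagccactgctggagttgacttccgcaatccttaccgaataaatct

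A second motif search concerned the ribosomal protein class. Transcripts of ribosomal proteins and elongation factors are known to begin with a C followed by a run of pyrimidines, the 5′ terminal oligopyrimidine tract, through which their translation is regulated. A C followed by 5 bases that are each C or T, within 5 bases before to 11 after the annotated start on the sense strand, was present in 43.3% of 67 cytosolic ribosomal protein genes with a window. The share was 11.9% of all genes and 14.8% of the 922 genes at 100 TPM or more. The match depends on the annotated start, and several genes have more than 1. The 30 bases around the start are shown for Rpl13a, at 4391 TPM, on chr7:45128696-45128995 and the minus strand, with the run of pyrimidines in capitals.
Rpl13a: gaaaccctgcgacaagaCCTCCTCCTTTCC

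Genes of other lineages were mostly uncounted. Of 209 genes in 13 lists, 29 (13.9%) reached 1 TPM and 92 had a count of 0 in each library. For neutrophils, Elane, Mpo, Ly6g, Ltf and Camp had a count of 0, and Cebpe at 4.57 ± 0.553 and S100a8 at 2.05 ± 0.552 TPM were the 2 genes above 1 TPM. No B cell gene reached 1 TPM, and Ms4a1 and Pax5 were at 0. Cd3e, Cd3d and Cd8a were at 0, while Gata3 was at 4.12, 6.32 and 1.32 TPM. Mast cell genes Cpa3, Kit and Fcer1a were at 0. The dendritic cell list was the exception, with Cd74, the invariant chain, at 203, 197 and 209 TPM and Itgax at 13.7 ± 0.239 TPM. The MHC class II genes that Cd74 serves were at 0.0733 ± 0.0635 (H2-Aa) and 0.26 ± 0.0872 TPM (H2-Ab1), and the class I genes H2-D1 and H2-K1 at 263.6 ± 10.7 and 169.8 ± 13.7 TPM. Other genes above 1 TPM included Tfrc, the transferrin receptor, at 214.5 ± 3.64 TPM, Mbp, which has transcripts in blood cells, at 29.6 ± 1.34 TPM, and Vwf at 5.07 ± 0.277 TPM. Of stromal and osteoblast genes only Runx2, at 2.01 ± 0.332 TPM, passed 1 TPM, and Alpl, Ibsp and Bglap were at 0.

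Traces of liver and heart transcripts were present and differed between libraries. Alb, the albumin gene, had counts of 167, 118 and 208. Myh6, the cardiac myosin heavy chain, had counts of 29.8, 6.15 and 176.5, Tnnt2 had 11, 3 and 73, and Myh7 had 21.2, 8.85 and 83.5. The third library was highest for each of the 4, and the second was lowest. The muscle list summed to 4.54, 2.96 and 19.8 TPM and the liver, fat and gut list to 11.6, 5.87 and 15.1 TPM. In one of the shUSP8 libraries Alb reached 721 counts. The source of these reads was not tested.

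Cell cycle genes were counted as well. Of 27 cell cycle genes, 25 reached 1 TPM, among them Mki67 at 29.8, 26.9 and 25.6 TPM and Top2a at 58.2, 55.5 and 51.7 TPM. Cdkn1a, which encodes the cell cycle inhibitor p21, was the highest of the list at 220, 223 and 216 TPM. Cdkn2a, which encodes p16 and ARF, had a count of 0 in each library, as did its neighbours Cdkn2b and Dmrta1. Farther genes of the same region were counted, with Mtap at 17.95 ± 2.03, Klhl9 at 19.8 ± 1.2 and Focad at 6.68 ± 0.342 TPM. The Y-linked genes Eif2s3y and Ddx3y were at 54.94 ± 1.76 and 14.7 ± 1.04 TPM and Xist was at 0, and the line comes from a male mouse.

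Over the whole annotation, 11367 of 55291 symbols (20.6%) had a mean of at least 1 TPM and held 99.84% of TPM. The number was 11417, 11338 and 11317 in the single libraries, and 10937 genes reached 1 TPM in all 3. A further step up left 7160 genes at 10 TPM, 1229 at 100 TPM and 168 at 1000 TPM, and the last 168 held 50.26% of TPM. In all, 35381 symbols (64%) had a count of 0 in every library. Of protein-coding symbols 7253 (33.3%) were at 0, against 84.5% of lincRNA and 84.4% of processed pseudogene symbols. Almost all microRNA and small nuclear RNA symbols were at 0 (99.8% and 99.9%), and the 22 mitochondrial tRNA genes all were. Such RNAs are mostly shorter than the fragments, which averaged 300.6 to 309.2 nt in the libraries. Their counts of 0, which are part of the 64%, therefore do not show that they were not expressed. Yes1, a SRC family kinase found in most tissues, was among the protein-coding genes at 0. Malat1 and Neat1, long noncoding RNAs of the nucleus, were at 256.7 ± 27.6 and 520.8 ± 31.9 TPM.

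The 3 libraries agreed closely for most genes. After scaling by the median of ratios, 10375 genes with a mean count of at least 50 had a median CV of 4.6%. Counting error alone gives a root mean square CV of 5.58% for these genes and 8.19% was observed, so an excess of 6% was left. Above 10000 counts, where counting error is 0.754%, the median CV was 3.49%. The highest library exceeded the lowest by more than 1.5-fold in 1.48% of the genes. No library was a second deposit of another, since the chi-square per gene was 2.29, 6.48 and 5.06 for the 3 pairs, where counting error alone gives 1. The third library lay farthest from the median for 43.6% of genes, against 31% and 25.4%. The median CV was 3.91% without the first library, 4.39% without the second and 3.02% without the third. Each of these is a CV over fewer libraries, which alone tends to lower the median, so they are not comparable with the 4.6% over all.

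Osteoclast gene lists differed in their spread. Scaled counts of Ctsk varied by 0.882%, of Slc4a2 by 0.426%, of Tcirg1 by 1.82% and of Acp5 by 2.42%. The medians over the lists for acid secretion, matrix degradation, fusion and sealing zone were between 2.44% and 2.67%. Those for transcription factors, inhibitors and coupling factors were 3.79%, 4.33% and 4.63%, and the resorption and fusion class had 3.97%. Counting error alone gave medians of 2.03%, 4.51% and 2.36% for these lists and 1.41% for the class. For acid secretion, matrix degradation, fusion and sealing zone it gave 0.434% to 1.27%. The lists thus differ in counting error too, and the spread of the inhibitors was not above it. Most of these genes are well counted, and the median CV over all genes with 1000 to 10000 counts was 3.24%. Nfatc1 was looser, with counts of 12664, 12356 and 10038 and a CV of 11.4%, and the third library was low. Plau, the urokinase gene, had a CV of 10.1% and was again lowest in the third library.

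Among genes with a mean of at least 10 TPM and 200 counts, and with predicted genes, pseudogenes and mitochondrial genes set aside, the 4 of widest range act in the response to amino acid shortage and protein folding stress, which the factors ATF4 and CHOP govern. Trib3, a pseudokinase induced by both factors, had counts of 184, 446 and 785, a range of 4.33-fold after scaling. Chac1, a glutathione-degrading enzyme, had 197, 423 and 695 counts, and Ddit3, which encodes CHOP, had 333, 532 and 1030. Herpud1, a gene of endoplasmic reticulum degradation, had 799, 1429 and 2082. In all 4 the third library was highest and the first lowest. Beyond these, the same library order was seen for Nupr1, Pck2, Bbc3, Atf5, Phgdh, Sesn2, Asns, Slc3a2 and Slc7a5, with ranges from 1.36-fold to 1.62-fold. Genes not listed under this response had that order too, such as Arl14ep, Tnfrsf9, Lrp12 and Ephx1, with ranges from 1.37-fold to 1.46-fold. Hspa5, the main chaperone of the endoplasmic reticulum, had 16222, 19266 and 23068 counts. Txnip, a gene that follows glucose supply, went the other way with 2124, 1556 and 1164 counts.

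Lists of these genes, written after their values had been seen, described the same spread. The third library was highest for 28 of 30 amino acid response genes and for 19 of 20 endoplasmic reticulum chaperones, against 3765 of all 10375 genes. Median log2 differences from the gene's mean were -0.21, -0.02 and 0.26 for the amino acid response list. Ribosomal protein genes were highest in the third library for 76 of 86, by a small amount, with medians of -0.05, -0.02 and 0.07. Cell cycle genes were lowest there, with a median of -0.09, and sterol and fatty acid synthesis genes were highest in the first library for 23 of 30. The median over all genes was within 0.002 of 0 in each library. Replicates have no order, and whether culture, harvest or another factor set the third library apart was not tested.

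**Figure D5:**
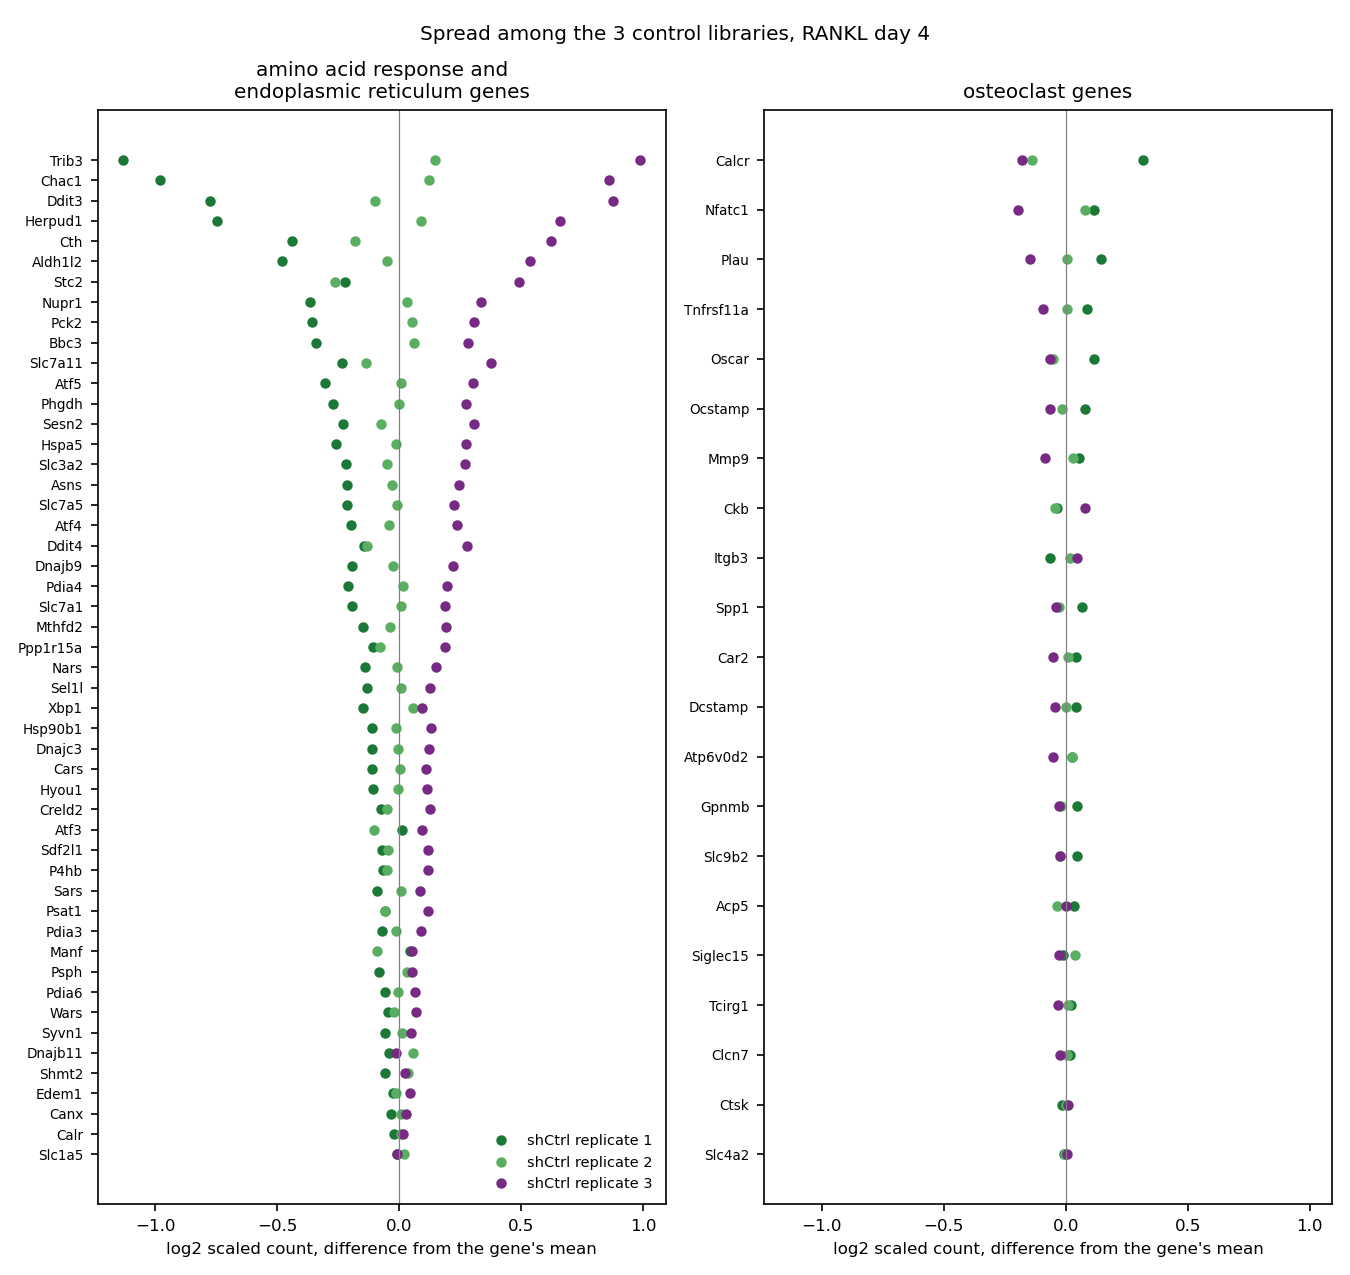
Difference of each library's log2 scaled count from the gene's mean, for amino acid response and endoplasmic reticulum genes (left) and osteoclast genes (right) with a mean count of at least 50. Each row is a gene and each point a library. On the left the third library lies to the right and the first to the left for most genes, with Trib3 the widest, and on the right most genes lie close to 0, with Calcr and Nfatc1 the widest.

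Entries with a near-identical copy also varied between libraries. Rpl27-ps3 had counts of 673, 0 and 0.11 and Gm11518 had 673, 1370 and 1474. Both match Rpl27, a ribosomal protein gene, at 100% identity, and the 3 entries together had 7613, 7648 and 8025 counts, a CV of 3.9%. Gm8210 had counts of 1692, 1156 and 2 and Gm13841 had 1694, 2300 and 3817. Together with Rpl29, which both match at 99.38%, they summed to 3849, 3876 and 4310 counts, a CV of 7.42%. In these 2 sets the sum varied less than the copies did. For mt-Co2 with Gm28661 the CV of the sum was 8.01%, against 23.4% for mt-Co2 alone and 8.17% for Gm28661 alone. For mt-Co3 with Gm28437 it was 6.71%, below the 32.3% of mt-Co3 alone but above the 4.38% of Gm28437 alone. Of the 30 genes with a range above 1.5-fold among 6871 with a mean of at least 10 TPM and 200 counts, 11 were left when predicted genes, pseudogenes and mitochondrial genes were set aside.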

How the data were processed

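Total RNA was sequenced as paired reads of 150 nt, per the labels' protocols, and 3 shCtrl libraries were described. The submitters' processing notes name RSEM, the build mm10 and DESeq2 1.28.1, without saying what each was used for. The authors deposited expected counts, which are estimates that divide shared reads between loci and need not be whole, and TPM, which also divides by effective length and has the same sum in every library. No row was left out of the totals. The reads were not reprocessed.

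Means, SDs and shares were computed per symbol with Python 3.11.15, pandas 2.3.3 and numpy 2.4.6, and figures with matplotlib 3.10.9. Genes were called counted at a mean of 1 TPM. Spread was computed on expected counts scaled by median-of-ratios size factors, for genes with a mean count of at least 50. Effective length was derived from count and TPM. Copies were compared with named genes by blastn 2.17.0 on GENCODE M21 transcripts (GRCm38.p6), and promoter windows came from RefSeq, where 20977 gene symbols of the files had a window. Scripts were tested on simulated data. No group comparison or significance test was made, and the shUSP8 libraries were used for the Usp8 check and the liver and heart transcripts alone. The condition, the gene lists and the classes were chosen with earlier results of these data known. Genes were named if they were among the 40 of highest mean TPM, members of the lists or gene families, the 15 of widest range between libraries (mean of at least 10 TPM and 200 counts), the 10 highest predicted genes, or Usp8, and the few others were named after their values were seen. The lists of amino acid response, endoplasmic reticulum, liver and heart genes were added after the values had been seen. Alternatives were the count scale, other thresholds, leaving out gene classes, short genes or copies, and leaving out each library.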

Additional observations from a re-analysis of the deposited data

How the results depend on the processing

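No paired analysis was possible because no groups were compared and no result came from a test. Of the alternatives to the main descriptions, 55 values stayed within the limit set for a change and 22 did not. Among the other functional classes, 85 stayed and 103 did not, where the limit for a share was 1 SD between libraries. Leaving out a library cannot move a mean share by as much as that SD. All 31 classes therefore stayed for each library left out, by construction. These values are part of both totals, so the totals do not measure how stable the shares were. With a threshold of 10 TPM in place of 1 TPM, 7160 genes were counted, with 30 macrophage genes and 7 of other lineages, and at 0.1 TPM there were 66 of other lineages. On the count scale 550 genes held 50% of the total, and the shares were 5.16% for ribosomal proteins, 4% for the mitochondrial genome and 1.84% for osteoclast resorption and fusion genes. Without the mitochondrial genome the shares were 16.8% for ribosomal proteins, 1.66% for the osteoclast class and 1.71% for the proton pump. Without small RNA and predicted genes they were 16.4%, 1.62% and 1.68%. Alternatives chosen after seeing the data gave 16.1%, 1.59% and 1.64% for these 3 classes without genes of effective length under 50 nt, and 5.42% for the mitochondrial genome. Without mt-Atp8 the mitochondrial genome took 5.81%, and without Atp6v0c-ps2 the proton pump took 1.26%. Counting the chromosome 1 copies with the mitochondrial genome gave it 16.5%. Each of these settings changes the denominator or the membership of the class by its construction. Leaving out each library in turn gave a median CV between 3.02% and 4.39%, and the lowest value came without replicate 3. These are CVs over fewer libraries, which alone tends to lower them. Depth limits genes near 3 counts per library, and genes shorter than a fragment have no usable TPM.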

Other observations

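In the class of S100 and annexin calcium-binding proteins, 17 of 29 genes reached 1 TPM and 7 had a count of 0 in every library. The class took 1.27 ± 0.0352% of TPM (SD, n = 3) and 0.519% of counts. Among 17 listed genes 16 reached 1 TPM and 9 reached 100 TPM, with a median of 281 TPM. These 17 were chosen after their values had been seen, so their high levels follow in part from the choice. S100a4 alone made up 50.6% of the class. S100a8 and S100a9, the calprotectin genes of neutrophils and activated monocytes, stood apart from S100a4 at means of 2.05 and 0.0833 TPM.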
